A study of Mus musculus with 12 samples.

Results

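The response of progenitors that lack Ebf1 to a retrovirus carrying EBF1 was measured on 6 of the 12 Affymetrix arrays of the series. They are the 3 arrays of the first set labelled as cells given the EBF1 virus (Mig-EBF1) and the 3 arrays of the same set labelled as cells given the control virus (MigR1), chosen by those labels alone. The RNA on all 6 came from Ebf1-/- progenitors of C57BL/6 mice, labelled as pre-pro-B cells. Both groups therefore share the Ebf1 deletion, growth on OP9 stromal cells with stem cell factor, Flt3 ligand and interleukin-7, and infection with a virus encoding GFP, and they differ in whether that virus also encodes Ebf1. GFP-positive cells were sorted 2 days after infection. EBF1 is thus supplied from a virus and not from its own gene, the animals' age is not in the labels, and they do not say if replicates are separate cultures or animals. The p-values given here measure only how far these arrays scatter, and that scatter may be technical. The wider study follows chromatin folding as pre-pro-B cells become pro-B cells, and these arrays ask which transcripts change when EBF1 is put back.

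EBF1 is a DNA-binding protein of the early B lineage. It works with E2A and FOXO1, and later with PAX5, to switch on the genes of the pre-B cell receptor, a surface complex in which the surrogate light chain proteins VPREB1 and λ5 (encoded by Igll1) pair with the immunoglobulin heavy chain and signal through CD79A and CD79B. Without EBF1 the lineage stalls at the pre-pro-B stage, and such progenitors keep the ability to form T, natural killer and myeloid cells.

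Intensity is a probe set's brightness on the scanner's linear scale, and the brightest of a gene's probe sets stands for the gene. Differences are on the scale log2(intensity + 16), EBF1 minus control, so a change of a dim gene is understated. Median intensities of the 6 arrays ran from 55.1 to 60.6 over 45037 probe sets, and the small number of arrays limits the precision. The progenitor label was borne out by Ptprc (CD45), at 5693 to 6434 in the controls and 4781 to 5257 with EBF1, by Il7r, at 737 to 3111 in the 6 arrays, and by Cd93, at 1802 to 4127. Flt3 stood at 1028 to 2927, Spn (CD43) at 572 to 1163 and Kit at 37.9 to 253. Of the T and myeloid markers, Cd3e stayed at 5.47 to 16.4 and Lyz2 at 58.8 to 83.2, but Cd28 read 1204 to 2290, Mpo 660.1 to 1876 and Fcgr3 2189 to 3195 in the controls. In RNA of a sorted population, fewer cells of a type and less RNA per cell cannot be told apart.

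Ebf1 itself did not separate the groups. Its brightest probe set read 2027, 2173 and 2148 in control arrays 1, 2 and 3 and 1886, 2477 and 1917 in the EBF1 arrays of the same numbers. The groups overlapped, and the 5 Ebf1 probe sets gave log2 differences between -0.31 and 0.02. Where these probe sets lie relative to the deleted part of the gene and of the virus is not stated, so they check nothing about the labels. Pax5, the later B-lineage factor, read 65.0, 54.3 and 78.3 in the controls and 76.1, 73.2 and 102 with EBF1. The groups overlapped on this probe set too. Its log2 difference was 0.28 ± 0.10 (SE, n = 3 pairs, limma with Benjamini-Hochberg adjustment, adjusted p = 0.35). The other Pax5 probe set read 63.83, 49.28 and 51.56 in the controls and 106.8, 68.98 and 81.8 with EBF1. There every EBF1 array was above every control, with a log2 difference of 0.512.

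With control and EBF1 arrays paired by number, EBF1 raised 5 of 18193 genes past an adjusted p of 0.05 (0.0275% of genes tested) and lowered 0 (0%). The 5 were Ms4a1, Tnnt2, Vpreb1, Gzma and Igll1. At an unadjusted p under 0.05 limma counted 1386 genes higher (7.62%) and 1067 lower (5.86%), where 910 in all would pass by chance. Without the pairing 10 genes passed. The count fell to 0 without pair 1 or without pair 2, where 1171 and 1671 genes had an unadjusted p under 0.05, and it was 6 without pair 3. The change was larger and more even when EBF1 array 3 was left out and arrays 1 and 2 were set against the 3 controls: 91 genes rose (0.5%) and 20 fell (0.11%). That count of 111 genes (0.61%) was 32, 63 and 17 with control array 1, 2 or 3 left out in addition, and 6 when pairs 1 and 2 were compared as pairs. By size alone, 99 genes (0.544%) were higher by over 1 log2 unit in all 3 pairs and 5 (0.0275%) were lower by as much. Of the 99, 5 were highest in EBF1 array 3, as stroma genes were (Fstl1, Nid1, S100a6, Sash1 and Sned1). Those lower were Wfdc17, P2ry12, Mycn, Rex2 and Mycl, and 0 of these 5 passed in either comparison. Both sets of 5 are named after their values were seen.

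**Figure D1:**
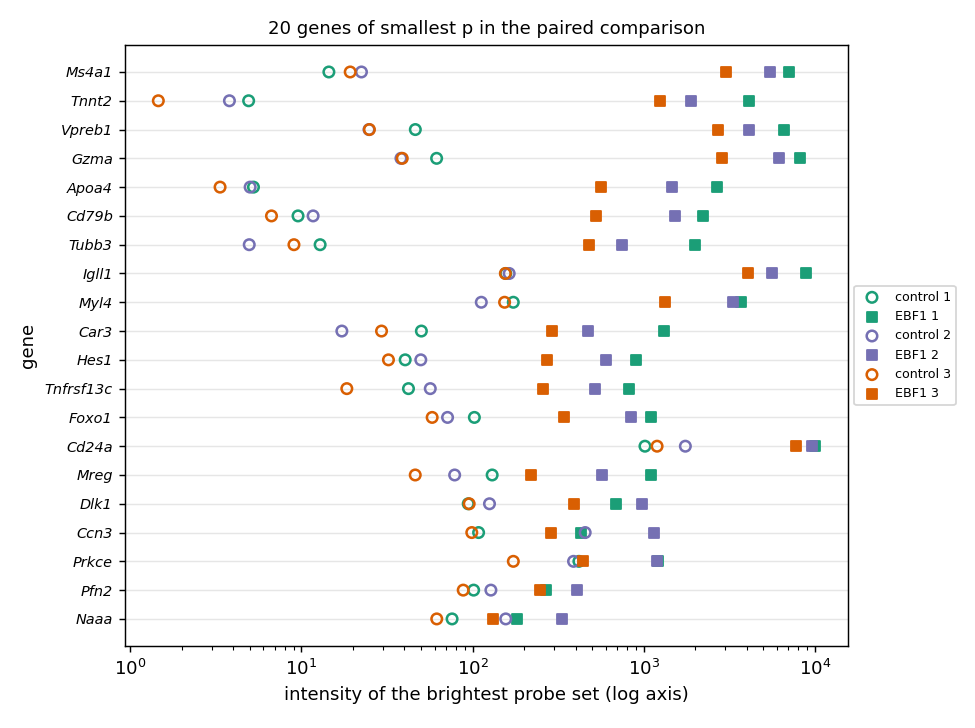
Intensity (log axis) of the 20 genes of smallest p in the paired comparison, in each control array (open circles) and EBF1 array (filled squares), coloured by replicate number. Ms4a1 moves from 14.5 to 22.4 in the controls to 3029 to 7028 with EBF1, and in the genes at the top EBF1 array 3 is the lowest of the EBF1 arrays but far above every control.

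The chains of the pre-B cell receptor had the largest median change of any gene list. Of 6 measured chains 2 rose in the paired comparison and 4 without EBF1 array 3 (0.0275% and 0.5% of all genes did). Of the 6, 5 had EBF1 arrays above all controls (7.67% of all genes did). The median log2 difference of the 6 chains was 4.32 against 0.01 over all genes. Vpreb1 read 46.3, 24.8 and 25.0 in control arrays 1 to 3 and 6613, 4108 and 2716 in the EBF1 arrays. All 3 EBF1 arrays lay far above all 3 controls, with a log2 difference of 6.48 ± 0.17 (SE, n = 3 pairs, limma adjusted p = 0.007). Igll1, the other surrogate light chain gene, read 156, 164 and 156 in the controls and 8918, 5633 and 4084 with EBF1. It rose by 5.08 ± 0.23 log2 units (adjusted p = 0.021), again without overlap, while a second and dimmer Igll1 probe set differed by 0.23.

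The signalling chains were also higher with EBF1 in all 3 pairs. Cd79b went from 9.56, 11.7 and 6.69 in the controls to 2223, 1527 and 523 with EBF1. Its pairs differed by 6.45, 5.80 and 4.57, which missed the threshold in the paired comparison (5.61 ± 0.37, adjusted p = 0.069) and passed without EBF1 array 3 (6.20 ± 0.20, adjusted p = 0.00067). Cd79a read 7.59, 15.5 and 16.5 in the controls and 633, 234 and 226 with EBF1. No arrays overlapped, and Cd79a too rose only in the comparison without EBF1 array 3 (3.80 ± 0.41, adjusted p = 0.028; paired 3.56 ± 0.41, adjusted p = 0.19). The remaining chains showed little: Ighm, the heavy chain constant region, was already at 3384 to 6289 in the controls and stood at 4021 to 5690 with EBF1, with no single direction over the pairs. Vpreb3 is one of the 5 chains counted above all controls, but it stayed dim, at 11.9 to 24.5 in all 6 arrays.

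EBF1 binds a palindromic site whose core is written CCCNNGGG, where N is any base. The core is its own reverse complement, so one search covers both strands. In RefSeq promoters of GRCm38.p6, taken from 250 bases before to 50 after each gene's start, 13.7% of 32851 windows held it, and 19.7% of the 14452 measured genes with a window had it in at least 1. Counted by gene, where a gene with several windows has more chances of a match, the core was found for 18 of the 64 genes with a window that rose without EBF1 array 3 (28.1%) and for 1 of 14 that fell (7.14%). The 250 bases before the start are printed 5′ to 3′ for the surrogate light chain genes, a signalling chain and 2 transcription factors that rose, with each core match in capitals.
Igll1, chr16:16863986-16864235, minus strand: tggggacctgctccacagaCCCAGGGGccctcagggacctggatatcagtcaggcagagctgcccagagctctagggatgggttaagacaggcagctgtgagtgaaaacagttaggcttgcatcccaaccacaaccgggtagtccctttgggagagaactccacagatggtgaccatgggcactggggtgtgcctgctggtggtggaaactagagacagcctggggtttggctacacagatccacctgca
Vpreb1, chr16:16869256-16869505, minus strand: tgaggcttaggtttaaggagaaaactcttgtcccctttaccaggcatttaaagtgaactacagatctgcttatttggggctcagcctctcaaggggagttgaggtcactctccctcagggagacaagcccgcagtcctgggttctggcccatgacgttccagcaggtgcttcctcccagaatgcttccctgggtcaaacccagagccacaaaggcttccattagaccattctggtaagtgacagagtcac
Cd79a, chr7:24897247-24897496, plus strand: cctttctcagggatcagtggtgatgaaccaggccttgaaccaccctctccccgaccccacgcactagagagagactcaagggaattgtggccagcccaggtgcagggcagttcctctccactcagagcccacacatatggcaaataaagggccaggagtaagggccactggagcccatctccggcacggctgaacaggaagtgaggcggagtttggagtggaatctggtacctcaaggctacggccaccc
Foxo1, chr3:52268087-52268336, plus strand: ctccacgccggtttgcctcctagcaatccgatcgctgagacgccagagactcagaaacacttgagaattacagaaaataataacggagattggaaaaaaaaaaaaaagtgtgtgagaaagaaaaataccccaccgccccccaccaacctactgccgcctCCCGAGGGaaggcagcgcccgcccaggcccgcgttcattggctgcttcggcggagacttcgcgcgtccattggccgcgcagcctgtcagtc
Spib, chr7:44532072-44532321, minus strand: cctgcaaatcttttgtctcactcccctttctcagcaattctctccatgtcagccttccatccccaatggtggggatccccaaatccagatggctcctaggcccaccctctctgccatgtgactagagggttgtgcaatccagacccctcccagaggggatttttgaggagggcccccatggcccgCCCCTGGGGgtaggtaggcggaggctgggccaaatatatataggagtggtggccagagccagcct
Igll1 and Vpreb1 are near neighbours on the same strand, with 5020 bases between the stretches shown. Igll1 has a match at base -231 from the start, Foxo1 at -91, and Spib has overlapping matches at -65 and -64. Vpreb1 and Cd79a have no exact match to the core in the window. Sequences that depart from the core were not searched for, so this does not show that a site is absent. A match is a description of the sequence and shows no binding.

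Among 24 measured surface proteins of B cells, 1 rose in the paired comparison and 6 without EBF1 array 3 (0.0275% and 0.5% of all genes did). In either comparison 0 fell, and 9 lay above all controls and 3 below (7.67% and 6.76% of all genes did). Their median log2 difference was 0.27. Ms4a1, which encodes CD20, had one of the largest changes: 14.5, 22.4 and 19.3 in the controls against 7028, 5494 and 3029 with EBF1. EBF1 arrays were far above the controls in every pair, by 7.85, 7.16 and 6.43 (7.15 ± 0.28, limma adjusted p = 0.017), and its second probe set gave 7.0. Cd24a, a glycoprotein that marks early B cells, was already bright in the controls, at 1017, 1751 and 1197, and reached 10030, 9651 and 7706. The EBF1 arrays of Cd24a differed little among themselves and did not overlap the controls; the paired comparison gave 2.80 ± 0.19 (adjusted p = 0.069) and that without EBF1 array 3 gave 2.92 ± 0.24 (adjusted p = 0.012). Ly6d, a marker of progenitors specified to the B lineage, read 118, 87.7 and 95.5 in the controls and 2695, 4077 and 796 with EBF1. EBF1 array 3 was the lowest of the 3 but still above every control, and Ly6d rose by 4.85 ± 0.22 without that array (adjusted p = 0.0013).

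Tnfrsf13c, the receptor for the survival factor BAFF, moved from 42.2, 56.6 and 18.4 to 820.1, 522 and 258 (3.67 ± 0.36 without EBF1 array 3, limma adjusted p = 0.023). Cd72, a co-receptor of the B cell receptor, moved from 924, 784 and 683 to 2242, 1891 and 1133 (1.36 ± 0.17, adjusted p = 0.048), and the dimmer Bst1 rose by 2.04 ± 0.21 (adjusted p = 0.027). For each of these the EBF1 arrays did not overlap the controls. The brightest surface genes that did not pass were Ptprc, Cd81, Tnfrsf13b and Cd37. Ptprc and Cd81 were lower in all 3 EBF1 arrays by small amounts, with log2 differences of -0.27 ± 0.11 and -0.18 ± 0.10. Cd2, chosen after its values were seen, read 184, 381 and 98.9 in the controls and 23.6, 94.9 and 59.7 with EBF1, below every control (-1.59 ± 0.35, adjusted p = 0.28).

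Among 16 receptor adaptors and kinases Blnk alone passed, in the comparison without EBF1 array 3 (0.61% of all genes did there). Blnk, the adaptor that links the receptor to downstream kinases, read 104, 26.8 and 39.5 in the controls and 1195, 943 and 233 with EBF1. Its groups did not overlap, although control array 1 and EBF1 array 3 came within a few fold of each other (4.03 ± 0.44 without EBF1 array 3, limma adjusted p = 0.029; paired adjusted p = 0.21). The list's median difference was 0.06. The brightest members that did not pass were Plcg2, Inpp5d, Ptpn6 and Fyn. The phosphatase gene Ptpn6 was lower in all 3 pairs (-0.51 ± 0.13, adjusted p = 0.29), as was the kinase gene Syk (-0.54 ± 0.10, adjusted p = 0.26), which was chosen after its values were seen. Vav2, chosen in the same way, was higher in all 3 (1.15 ± 0.25, adjusted p = 0.28).

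Of 27 B-lineage transcription factors Foxo1 and Spib rose without EBF1 array 3 (0.5% of all genes did), and 0 passed in the paired comparison. There limma gave 8 higher and 4 lower at an unadjusted p under 0.05 (7.62% and 5.86% of all genes were). Foxo1, a partner of EBF1 in the early B-lineage programme, read 102, 71.5 and 58.1 in the controls and 1104, 841 and 343 with EBF1. The groups did not overlap (3.42 ± 0.24 without EBF1 array 3, adjusted p = 0.0082; paired 2.94 ± 0.23, adjusted p = 0.11). Over its 4 probe sets the paired difference ran from 0.07, where the probe set was near the floor in every array, to 2.94. Spib, an ETS factor of B cells and plasmacytoid dendritic cells, read 61.9, 33.9 and 37.2 in the controls and 726, 898 and 258 with EBF1 (3.80 ± 0.23 without EBF1 array 3, adjusted p = 0.0044). Its EBF1 arrays also lay clear of the controls.

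Pou2af1, a co-activator of octamer-binding factors, was chosen after its values were seen. It rested at 7.67, 8.14 and 5.77 in the controls and reached 272, 88.4 and 55 without overlap, but missed the threshold (2.48 ± 0.39 paired, limma adjusted p = 0.23; 2.90 ± 0.41 without EBF1 array 3, adjusted p = 0.062). Factors that were bright in the controls differed little. Sox4, Ikzf1, Myb and Mef2c were the brightest that did not pass, and the first 3 of them stood at 3820 to 7241 in all 6 arrays, with log2 differences of -0.14, -0.12 and -0.04. The median over the 27 factors was 0.03.

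Hes1, a repressor that is a classical target of Notch, was the member of 19 Notch pathway genes that passed (0.61% of all genes did without EBF1 array 3). It read 40.4, 49.9 and 32.3 in the controls and 903, 604 and 274 with EBF1, with no overlap (3.74 ± 0.22 without EBF1 array 3, limma adjusted p = 0.0041; paired 3.28 ± 0.29, adjusted p = 0.12). The other 18 genes of the pathway did not pass: the list's median difference was 0.00, Notch1 had no single direction at 1993 to 3487, and Notch2 was lower in all 3 pairs (-0.67 ± 0.21, adjusted p = 0.32).

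Recombination genes varied among the controls. Rag1, a subunit of the recombinase that assembles antigen receptor genes, read 552, 118 and 623 in the controls and 3435, 2954 and 1368 with EBF1. All EBF1 arrays were above all controls, but control array 2 was low and the pairs differed by 2.60, 4.47 and 1.11, so that Rag1 did not pass in either comparison (2.73 ± 0.64, limma adjusted p = 0.29; without EBF1 array 3, adjusted p = 0.17). Control array 2 was low in the same way for Rag2, at 137 against 819.6 and 799, and for Il7r, at 737 against 3111 and 2362. Rag2 read 1218, 628 and 633 with EBF1, so array 1 was above all controls and the other 2 were among them. Dntt, the enzyme that adds untemplated bases to the joins, was lower in all 3 pairs (-3.08, -0.76 and -1.12) without passing. Of the 11 recombination genes 0 passed in either comparison, and their median was 0.13. At an unadjusted paired p under 0.05, 3 were higher and 1 lower (7.62% and 5.86% of all genes were).

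Of 20 genes of interleukin-7 signalling 0 passed in either comparison. At an unadjusted paired p under 0.05, 6 were higher and 4 lower (7.62% and 5.86% of all genes were). Of the 20 genes, 6 lay above all controls and 4 below (7.67% and 6.76% of all genes did). Cish and Socs3, feedback inhibitors induced by cytokine signalling, were chosen after their values were seen. Cish read 345, 555 and 253 in the controls and 1991, 1398 and 787 with EBF1, and Socs3 differed by 1.62 ± 0.24 (limma adjusted p = 0.22 and 0.23). Mycn, a growth regulator abundant in these progenitors, read 7301, 6064 and 6991 in the controls and 3037, 2003 and 1095 with EBF1. On this probe set every EBF1 array was below every control and array 3 was the lowest (-1.84 ± 0.29, adjusted p = 0.24). The other 2 Mycn probe sets differed by -0.69 and -0.89, with array 3 the highest EBF1 array and among the controls. Myc read 694, 1557 and 1227 against 2030, 2523 and 1575, just clear of the controls (0.86 ± 0.24, adjusted p = 0.30). Bcl2, an inhibitor of cell death, was lower in all 3 pairs (-0.63 ± 0.21, adjusted p = 0.34).

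Several of the largest rises were in genes known from tissues other than the B lineage. Tnnt2, cardiac troponin T, went from 4.92, 3.80 and 1.46 in the controls to 4096, 1901 and 1237 with EBF1. Its groups did not overlap (6.79 ± 0.29, limma adjusted p = 0.02), although with controls this dim the size depends on the added constant (8.20 with a constant of 4 and 5.03 with 64). Of its 3 probe sets one other gave 6.82 and another, dim in all arrays, 0.10. Gzma, granzyme A of cytotoxic lymphocytes, read 61.7, 38.2 and 38.9 in the controls and 8223, 6138 and 2877 with EBF1. Its EBF1 arrays were all far above the controls (6.43 ± 0.25, adjusted p = 0.017). Apoa4, an apolipoprotein of the intestine, read 5.25, 5.02 and 3.35 in the controls and 2680, 1463 and 564 with EBF1 (6.01 ± 0.40 paired, adjusted p = 0.069; 6.60 ± 0.26 without EBF1 array 3, adjusted p = 0.0011). Tubb3, a tubulin best known from neurons, moved from 12.9, 4.96 and 9.05 to 2006, 743 and 478 (5.65 ± 0.42 without EBF1 array 3, adjusted p = 0.0089). In these genes, as in Vpreb1, Igll1, Cd79b and Cd79a, EBF1 array 1 was the highest and array 3 the lowest.

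The rest of the 20 largest rises without EBF1 array 3 included Col26a1 (a collagen), Bhlha15 (a factor of secretory cells), Car2 and Car3 (carbonic anhydrases), Gal (the neuropeptide galanin), Tnfrsf9 (the co-stimulatory receptor 4-1BB), Myl4 (an atrial myosin light chain), Xdh (xanthine dehydrogenase), Ano1 (a chloride channel), Mfsd4a and Eps8l2. Their log2 differences without EBF1 array 3 ran from 4.13 for Car3 and Ano1 to 5.24 for Col26a1. Col26a1 read 9.57, 9.21 and 10.4 in the controls and 1065, 861 and 216 with EBF1. Bhlha15 read 9.06, 38.2 and 14.8 against 1551, 902 and 341, and Myl4 read 173, 112 and 154 against 3705, 3313 and 1327. None of these overlapped, and none passed in the paired comparison, in which Col26a1 and Bhlha15 had an adjusted p of 0.19 and Myl4 one of 0.12. The second probe sets of Col26a1, Bhlha15 and Myl4 differed by only 0.34, 0.45 and 0.41. Dlk1, a membrane protein of the Notch ligand family, was among the 20 genes of smallest paired p and rose without EBF1 array 3 (2.79 ± 0.21, limma adjusted p = 0.0089). The 5 genes of smallest paired p that missed the threshold in both comparisons were Prkce, Pfn2, Mreg, Ccn3 and Naaa, with paired differences from 1.01 for Naaa to 2.50 for Mreg.

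Changes were smaller in EBF1 array 3. Against the mean of the controls, the 91 genes that rose without it had median log2 differences of 2.89, 2.58 and 1.27 in EBF1 arrays 1, 2 and 3. Array 3 was above all 3 controls for 89 of them and within their range for the other 2. For the 20 genes that fell the medians were -1.84, -1.77 and -0.34. Array 3 lay below all controls for 13 of them, within their range for 5 and above for 2. The genes were chosen on EBF1 arrays 1 and 2 and these same controls, so a smaller change in array 3 is partly built into the choice and is given as a description.

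**Figure D2:**
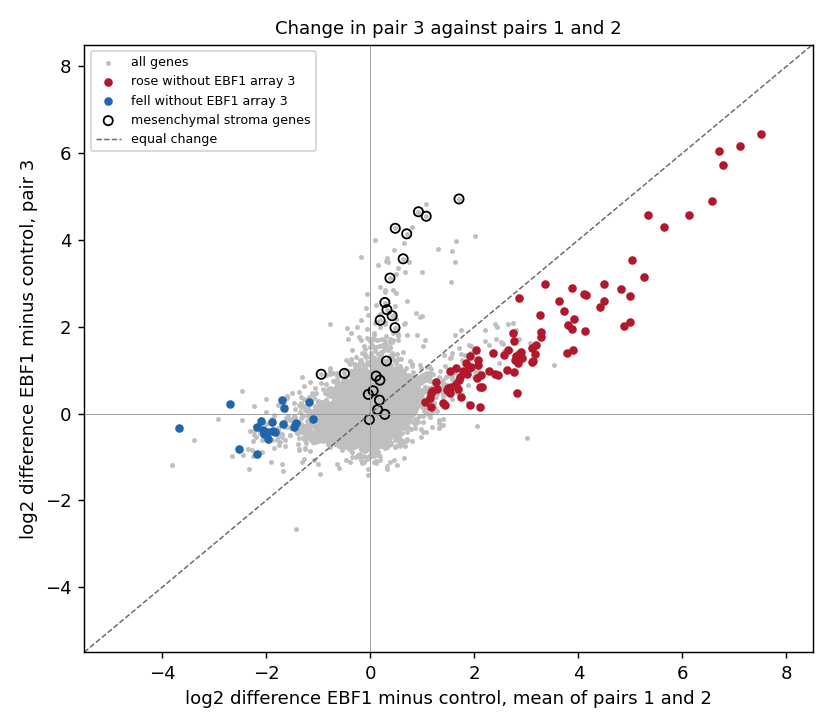
Log2 difference EBF1 minus control in pair 3 (vertical) against the mean of pairs 1 and 2 (horizontal) for 18193 genes, with the 91 rises in red, the 20 falls in blue, 23 stroma genes ringed and a dashed line at equal change. Red and blue points lie nearer to 0 in pair 3 than in the other pairs, and many ringed genes lie far higher in pair 3 than in the other pairs.

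The same array carried the highest levels of genes of the stroma on which the cells were grown. The summed intensity of 23 measured stroma genes was 2637 to 3778 in the controls and 4361, 2901 and 16030 in EBF1 arrays 1, 2 and 3. Cxcl12, the chemokine made by stromal cells, read 128, 21.3 and 129 in the controls and 142, 134 and 3366 with EBF1, and the collagen gene Col1a2 read 376, 45.4 and 99.3 against 542, 97.8 and 2018. Array 3 was thus the highest for both by a wide margin. Col1a1 was at 1, near the lowest value on the arrays, in control arrays 2 and 3 and at 132 in EBF1 array 3. Sparc reached 579 there and Col3a1 359. Dcn, Lum and Postn stayed dim in all 6 arrays, and Pdgfrb did not single out array 3. The list's median difference was 0.39 and 0.15 in pairs 1 and 2 and 1.98 in pair 3. Of the 23 genes 15 were higher in all 3 pairs and 0 lower (3708 and 3085 of all 18193 genes were). Of its genes 0 passed in either comparison, and 5 lay above all controls (7.67% of all genes did). At an unadjusted paired p under 0.05, 5 were higher and 0 lower (7.62% and 5.86% of all genes were). What part stromal RNA has in the values of array 3 was not tested. Mme (CD10), listed as a B cell surface protein and chosen after its values were seen, followed the stroma genes rather than Ms4a1, at 527 in EBF1 array 3 against 4.83 to 91.8 in the other arrays.

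**Figure D3:**
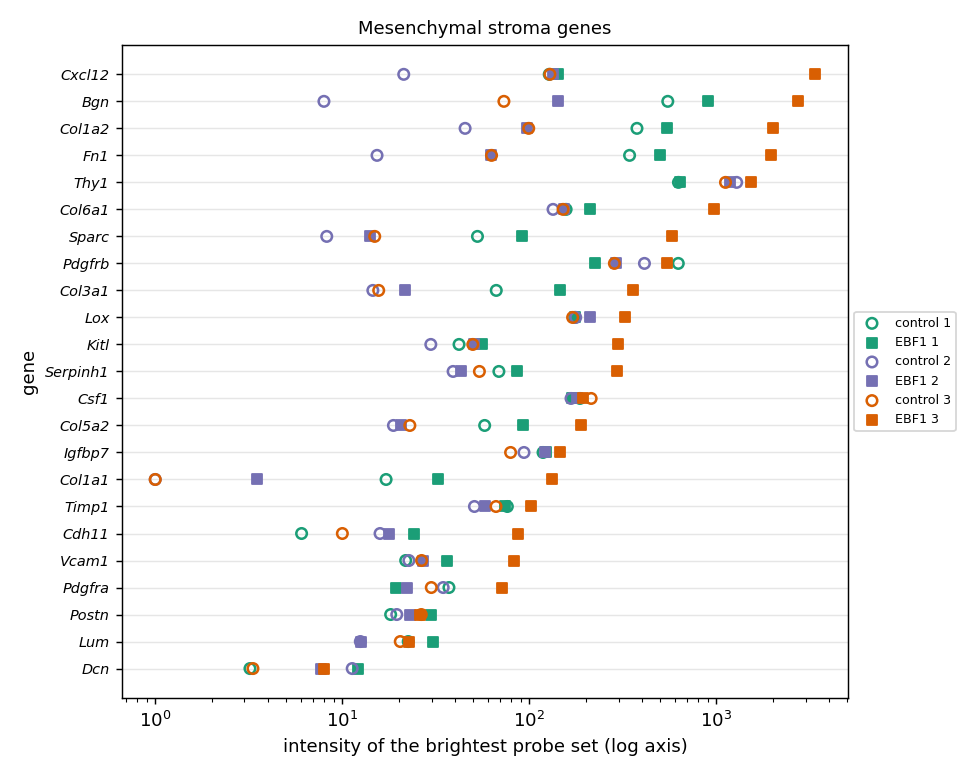
Intensity (log axis) of 23 stroma genes in each control array (open circles) and EBF1 array (filled squares), coloured by replicate number. EBF1 array 3 is far to the right of the other arrays for Cxcl12 (3366), Bgn (2727), Col1a2 (2018) and Fn1 (1962), while Dcn, Lum and Postn are dim in every array.

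The paired comparison called no fall, so the calls given here come from the comparison without EBF1 array 3 and rest on 2 EBF1 arrays. With all 3 EBF1 arrays, a trended robust prior called 4 falls and an unpaired fit of all groups 5. Cd34, a surface marker of blood progenitors, read 2834, 2146 and 3103 in the controls and 725, 522 and 2300 with EBF1. EBF1 arrays 1 and 2 were well below every control and array 3 was within their range (-2.08 ± 0.22 without EBF1 array 3, limma adjusted p = 0.028; paired -1.46 ± 0.35, adjusted p = 0.29). Cd7, an early T and natural killer lineage protein, read 208, 181 and 234 in the controls and 19.6, 21.6 and 126 with EBF1. Here all 3 EBF1 arrays were below the controls (-2.60 ± 0.14, adjusted p = 0.0032; paired adjusted p = 0.26). Gata3, the T-lineage factor, was very even in the controls, at 57.9, 56.2 and 56.4, and read 8.59, 4.73 and 74.6 with EBF1. It fell in EBF1 arrays 1 and 2 (-1.69 ± 0.13, adjusted p = 0.0094) and was slightly above the controls in array 3.

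The steepest fall was that of Ddx4, an RNA helicase known from germ cells, from 1533, 772 and 2028 to 75.2, 66.3 and, in array 3, 1599 (-3.97 ± 0.40 without EBF1 array 3, limma adjusted p = 0.025). Adgre1, the macrophage antigen F4/80, read 597, 375 and 341 in the controls and 55.9, 62.7 and 399 with EBF1 (-2.55 ± 0.25, adjusted p = 0.024). Array 3 lay within the controls for both. Il18r1, a cytokine receptor of innate lymphoid and natural killer cells, read 1648, 1081 and 1120 against 315, 310.2 and 799, below the controls in every array (-1.96 ± 0.21, adjusted p = 0.028). Ltb (lymphotoxin β) fell by 1.98 ± 0.20 log2 units, Il4ra (an interleukin-4 receptor chain) by 1.78 ± 0.23 and Zyx (the focal adhesion protein zyxin) by 1.64 ± 0.12. Hlx, Hemgn, Htra1, Psd3, Slc26a11, Dnah8, Jam2, Sh2d5, Tmem154, Prr5l and A430005L14Rik made up the 20, with differences from -2.29 for Hlx to -1.11 for A430005L14Rik.

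**Figure D4:**
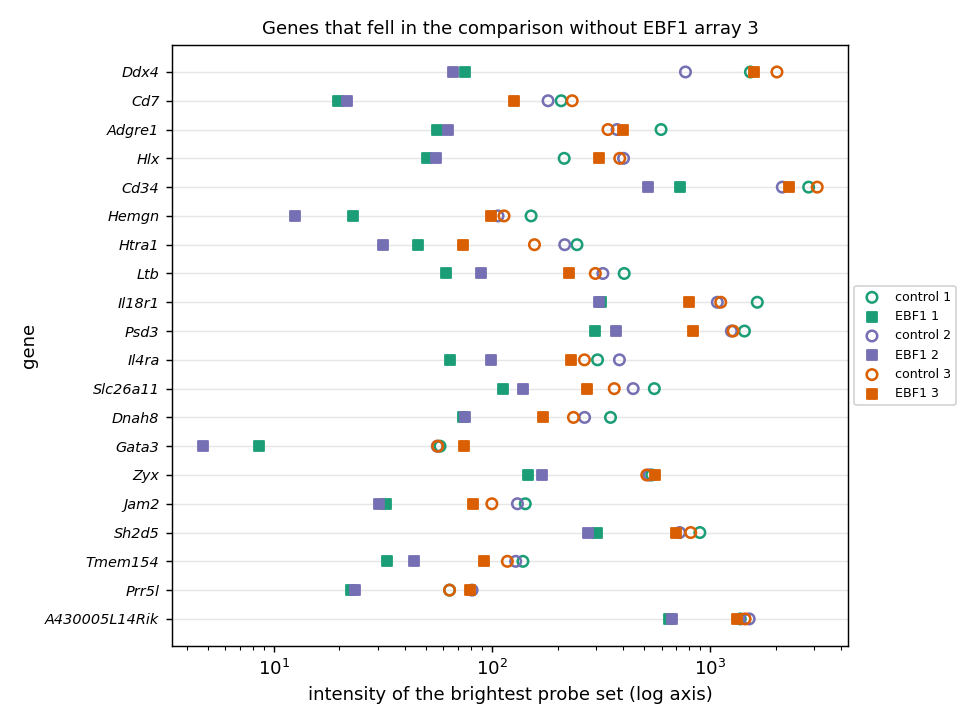
Intensity (log axis) of the 20 genes that fell in the comparison without EBF1 array 3, in each control array (open circles) and EBF1 array (filled squares), coloured by replicate number. EBF1 arrays 1 and 2 lie left of all controls. Array 3 lies left of all controls for 13 genes, for example at 74 for Htra1. It lies within their range for 5, for example at 1599 for Ddx4 and 2300 for Cd34, and right of them for 2 (Gata3 and Zyx).

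Of 20 stem and progenitor genes measured, Cd34 alone fell, without EBF1 array 3 (0.11% of all genes did). Below all controls lay 7 and above them 1 (6.76% and 7.67% of all genes did). In all, 13 were lower in all 3 pairs and 1 higher (3085 and 3708 of all 18193 genes were). At an unadjusted paired p under 0.05, 12 were lower and 1 higher (5.86% and 7.62% of all genes were), and the median difference was -0.45. The brightest that did not pass were Hoxa9, Satb1, Mycn and Cd93. Flt3, the receptor of a growth factor in the culture, was chosen after its values were seen, and read 2927, 1823 and 2672 in the controls and 1028, 1299 and 1709 with EBF1, below every control (-0.87 ± 0.23, limma adjusted p = 0.29). Kit, the receptor of stem cell factor, read 162, 99.4 and 253 against 43.5, 37.9 and 190.2 (-1.02 ± 0.24, adjusted p = 0.29). The median by pair was -0.69, -0.69 and -0.25, smallest in pair 3. Why it was smaller there was not tested.

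Chemokine receptors and adhesion molecules showed the lowest median of any list, -0.46. Of 19 measured 0 passed in either comparison, and 11 were lower in all 3 pairs and 0 higher (against 3085 and 3708 of all 18193 genes). At an unadjusted paired p under 0.05, 10 were lower and 0 higher (5.86% and 7.62% of all genes were). Below all controls lay 6 (6.76% of all genes did). Ccr9, a homing receptor of early lymphoid progenitors, read 6381, 3841 and 5827 in the controls and 1565, 1603 and 5163 with EBF1. Arrays 1 and 2 were low and array 3 was among the controls (-1.71 ± 0.24 without EBF1 array 3, limma adjusted p = 0.059). Itga4, the α4 integrin chain, read 5672, 4550 and 5028 against 1917, 2899 and 3210, with no overlap (-0.95 ± 0.22 paired, adjusted p = 0.29). Its partner Itgb7, chosen after its values were seen, read 991, 1144 and 606 against 117, 336 and 452, also without overlap (-1.68 ± 0.48, adjusted p = 0.30).

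Genes of other blood lineages were mixed. Of 18 T-lineage genes Cd7 and Gata3 fell without EBF1 array 3 and 0 rose (0.11% and 0.5% of all genes did). The defining Cd3e was near the floor throughout, and the median was -0.07. Among 19 genes of natural killer and innate lymphoid cells Gzma rose and Il18r1 fell, and the median was -0.15. Without EBF1 array 3, 0.5% of all genes rose and 0.11% fell. Above all controls lay 3 and below them 6 (7.67% and 6.76% of all genes did). Gzma thus moved opposite to the list's median. Tyrobp and Fcer1g, signalling adaptors of those cells, were the brightest that did not pass and were lower in all 3 pairs (-0.79 ± 0.22, limma adjusted p = 0.30, and -0.60 ± 0.13, adjusted p = 0.28). Id2, an inhibitor of E proteins and also a member of this list, read 1756, 1853 and 1306 in the controls and 629, 648 and 1167 with EBF1, below the controls in each array (-1.04 ± 0.30, adjusted p = 0.30; without EBF1 array 3 -1.32 ± 0.18, adjusted p = 0.059). Zbtb16 (PLZF), an innate lymphoid factor, differed by -1.30 ± 0.30 (adjusted p = 0.29). Of the 12 measured factors of other lineages, a list with Id2, Zbtb16 and Gata3 in it, Gata3 alone passed (0.61% of all genes did without EBF1 array 3).

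Of 23 myeloid genes Adgre1 fell without EBF1 array 3 and 0 rose (0.11% and 0.5% of all genes did). Ccl3, an inflammatory chemokine, read 3542, 1469 and 2620 in the controls and 409.5, 292 and 1322 with EBF1, and Fcgr3, a low-affinity Fc receptor, read 3195, 2189 and 2850 against 1002, 793 and 2032. Neither overlapped, and both missed the threshold (-2.73 ± 0.38, limma adjusted p = 0.059, and -1.59 ± 0.21, adjusted p = 0.051, without EBF1 array 3). Mpo, the neutrophil peroxidase, was chosen after its values were seen; it read 1876, 1034 and 660.1 against 407, 199 and 537 (-1.58 ± 0.43 paired, adjusted p = 0.30). The list's median was 0.03. Of 14 dendritic cell genes Spib rose without EBF1 array 3 and 0 fell (0.5% and 0.11% of all genes did), and the median was -0.37. At an unadjusted paired p under 0.05, 2 were higher and 7 lower (7.62% and 5.86% of all genes were).

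In the other programmes 0 genes passed in either comparison. Of 25 cell cycle genes 0 passed in either comparison (3 higher and 0 lower at an unadjusted paired p under 0.05), the median was 0.06, and Mki67 (the proliferation antigen Ki-67, chosen after its values were seen) read 4297, 3073 and 4265 in the controls and 4218, 2917 and 4457 with EBF1, following the replicate number and not the virus. Of 27 genes of chromatin architecture 0 passed (0 higher and 1 lower at an unadjusted paired p under 0.05) and the median was -0.10. By direction alone, 12 of the 27 were lower in all 3 pairs and 3 higher (3085 and 3708 of all 18193 genes were). Of 18 immediate-early genes 9 were higher in all 3 pairs and 1 lower (3708 and 3085 of all 18193 genes were). The median was 0.26, and 0 passed (5 higher and 0 lower at an unadjusted paired p under 0.05). Jun, of the AP-1 factor, was chosen after its values were seen and came nearest, from 62.2, 49.9 and 49.7 to 139, 124 and 103 (1.08 ± 0.14 without EBF1 array 3, limma adjusted p = 0.051). The interferon-stimulated (17 measured), MHC class II (13), erythroid and megakaryocyte (13) and mast cell and basophil (12) genes likewise had 0 past the threshold, with medians of -0.06, -0.14, -0.02 and -0.05. At an unadjusted paired p under 0.05 these lists held 0, 2, 1 and 0 genes higher and 0, 1, 1 and 3 lower. Over all genes 7.62% were higher and 5.86% lower by that measure.

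**Figure D5:**
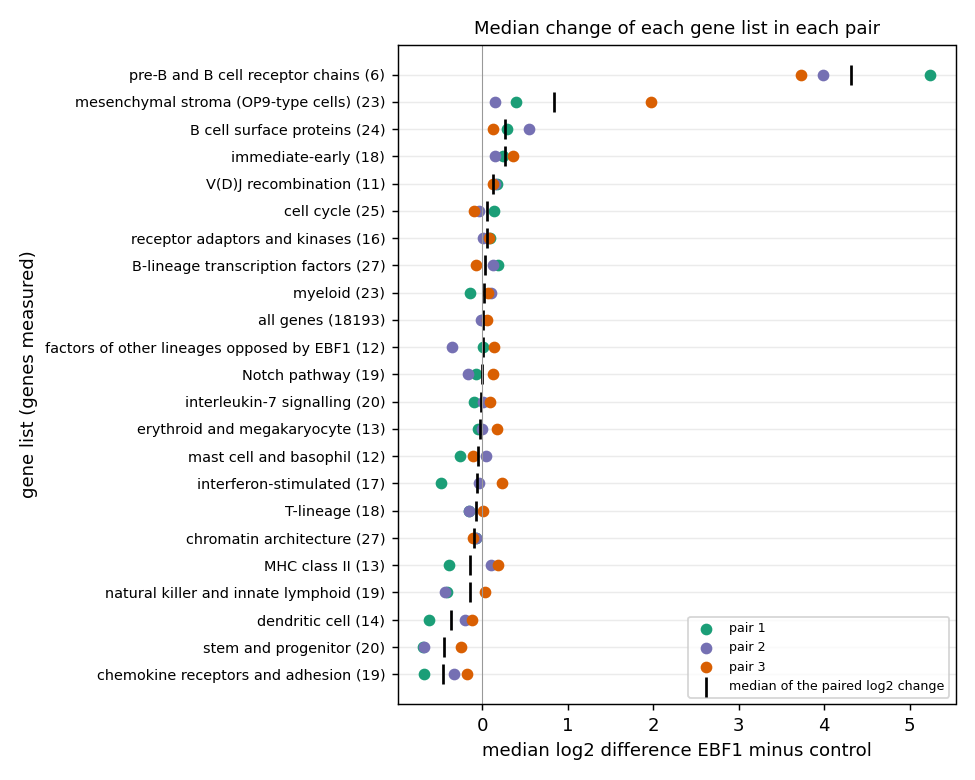
Median log2 difference EBF1 minus control of each gene list in pairs 1, 2 and 3 (coloured points) and in the paired comparison (black bar), with the number of genes measured in brackets. The receptor chains stand at 3.73 to 5.24 in all pairs, the stroma list is highest in pair 3 (1.98, against 0.39 and 0.15), and the stem and progenitor and the chemokine receptor lists lie below 0 in all pairs.

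The same progenitors given PAX5 instead of EBF1 were measured in the other 6 arrays, whose control arrays were nearly identical to those used here (robust SD between log2 values 0.039 to 0.094 at equal numbers, 0.287 to 0.374 at unequal ones). The controls are thus shared, and the fit counts each of them once, and PAX5 arrays 2 and 3 as 1 sample since their robust SD was 0.077. The EBF1 and PAX5 changes differed for 353 genes (limma, adjusted p under 0.05, 1.94% of genes tested). Among the receptor chains, Vpreb1 differed from control by 6.48 with EBF1 and 0.20 with PAX5 (test of the difference, adjusted p = 5.86e-05), Igll1 by 5.08 and -0.17 (adjusted p = 5.74e-05) and Cd79b by 5.61 and 1.5 (adjusted p = 0.0051). Gzma (6.43 and -0.12), Tnnt2 (6.79 and 0.18), Ly6d (4.17 and -0.55) and Rag1 (2.73 and -0.91) also differed between the factors, with adjusted p-values from 0.00011 for Gzma to 0.033 for Rag1. For other genes the difference did not pass: Hes1 differed from control by 3.28 and 3.14 (difference 0.15 ± 0.44, adjusted p = 0.91) and Cd24a by 2.80 and 2.22 (0.58 ± 0.22, adjusted p = 0.22). Spib stood at 3.27 and 3.93 (-0.66 ± 0.46, adjusted p = 0.52) and Blnk at 3.33 and 5.84 (-2.51 ± 0.66, adjusted p = 0.10), and a p above the threshold does not show that the factors act alike.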

How the data were processed

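The authors deposited 1 intensity for each probe set and array, on a linear scale; the normalization behind it is not given in the sources used. Targets were biotin-labelled cRNA, per the labels. Of 45037 probe sets, 34945 carried 1 gene symbol in the platform annotation, 932 several and 9160 none. The brightest probe set of each gene was kept, which gave 18193 genes, and log2(intensity + 16) was used with no further normalization or filter.

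The paired comparison was a fit of 3 control and 3 EBF1 arrays with the replicate number as a block (limma 3.58.1, R 4.3.3). Moderated p-values were adjusted by Benjamini-Hochberg across the 18193 genes, and 0.05 was the threshold. The comparison without EBF1 array 3 used 3 controls and EBF1 arrays 1 and 2, unpaired. The scripts were tested on simulated data. Labels share replicate numbers, and the deviations of equal numbers from their group means correlated at 0.36, 0.64 and 0.39 (unequal numbers -0.46 to 0.02), each over 0.1, and the arrays were treated as pairs. EBF1 and PAX5 changes were compared in 1 fit of all groups, with repeated arrays averaged.

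The arrays, gene lists and tests were chosen with earlier results of these data known. Genes named are the 20 of smallest paired p, the 20 largest rises and 20 largest falls without EBF1 array 3, list members past the threshold, and up to 4 of the brightest list members that did not pass; others are said to be chosen after their values were seen. Symbols were matched to RefSeq genes, and promoters are those of RefSeq GRCm38.p6, which held 78 of the 111 genes that passed. Alternatives were other constants (4 and 64), quantile normalization, a filter on dim genes, the mean of probe sets, array weights, a trended robust prior, the pairing, all groups in 1 fit and leaving out each array. Plots were made in Python 3.11.15 (matplotlib 3.10.9, pandas 2.3.3).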

Additional observations from a re-analysis of the deposited data

How the results depend on the processing

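The number of genes that pass depends on the settings. Among the genes run under the alternatives (20 paired, 49 without EBF1 array 3) 0 log2 differences reversed. Those genes were picked for a small p or for passing the threshold, and the alternatives refit the same arrays. The lack of reversals was therefore largely set by the choice and says nothing about direction in other genes. In the paired comparison (5 genes) the count was 2 with a constant of 4, 0 with 64 (2710 genes at an unadjusted p under 0.05), 35 with a filter on dim genes, 73 with a trended robust prior (69 higher, 4 lower) and 40 (35 higher, 5 lower) in a fit of all groups that also dropped the pairing. Leaving out a pair gave 0 to 6. Without the replicate block it was 10, then 2, 6 and 0 without control array 1, 2 or 3 and 11, 5 and 111 without EBF1 array 1, 2 or 3. Without EBF1 array 3 (111 genes) it was 57 with a constant of 4, 63 with 64, 284 with the trended prior, 406 in the fit of all groups, 6 with pairs 1 and 2 as a replicate block, and 17 to 63 without 1 control. Of the 99 and 5 genes higher or lower by over 1 log2 unit in every pair, a constant of 64 left 64 and 1, a constant of 4 and quantile normalization gave 10 and 9 lower, the mean of probe sets 3 lower, and dropping pair 3 gave 175 and 137. The 353 genes that differed between EBF1 and PAX5 became 575 without EBF1 array 3. Counting each of these genes under each setting, 274 results kept their side of the threshold in the paired comparison, 58 gained a call and 28 lost one. Without EBF1 array 3, where the genes run had all passed and could only lose a call, 400 kept it and 173 lost it. The cause was not tested. Signal near the floor limits dim genes, whose log2 differences have no exact size.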
